A study of Mus musculus with 12 samples.

Results

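The oxysterol-binding protein family was examined in sciatic nerve RNA from 12 mice, through 10 genes matched by symbol and Ensembl identifier: Osbp, Osbp2, Osbpl1a, Osbpl2, Osbpl3, Osbpl5, Osbpl6, Osbpl8, Osbpl9 and Osbpl11. The count table held 43432 genes, of which 17257 had enough reads to be tested, and all 10 members were among them. The remaining family genes, Osbpl7 and Osbpl10, were also tested and are given beside the members. The members were chosen by their symbols, and the family itself was selected on measured values of these libraries, with the comparison that led to it not recorded. Therefore the differences below describe these nerves and the p-values are not independent support.

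The 3 groups of 4 mice each were compared at 1 month of age (P30). WT control mice (Mtmr2 wt/wt) and Mtmr2 KO mice (Mtmr2 -/-) have the treatment label none, while the study's text describes the Mtmr2 KO mice compared with niacin as given vehicle, so untreated stands here for mice not given niacin. The Mtmr2 KO niacin mice (Mtmr2 -/-) were injected i.p. with niacin, 120 mg/kg, from P10 until P21, followed by slow-release niacin (Niacin-SR) by gavage until P30. The Mtmr2 KO lacks a myotubularin phosphatase in every cell, so it is not a Schwann cell-specific model, and niacin-treated WT mice were not analysed here, so an effect of niacin cannot be told apart from one that needs the Mtmr2 loss. The nerve was sampled whole, and fewer cells of a type cannot be told apart from less RNA per cell. Each library came from 1 nerve of 1 mouse, and each group held males and a female whose libraries the labels do not mark. Each library carries its number from the labels, 4497 to 4508.

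Oxysterol-binding proteins (OSBP) and the OSBP-related proteins carry single lipids between membranes at the sites where a pair of organelles touch. A shared lipid-binding domain holds either a sterol or a phospholipid such as phosphatidylserine, and many members also take up the phosphoinositide PI4P, whose breakdown at the endoplasmic reticulum drives the exchange. Most members anchor to the endoplasmic reticulum through the VAP proteins or a membrane segment of their own. Myelinating Schwann cells build a membrane rich in cholesterol, and MTMR2 dephosphorylates other phosphoinositides, which is the setting in which the family was examined.

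Some facts of the libraries bear on every value. Totals ranged from 20763951 to 33191106 counts. Those of the niacin-treated libraries, 20983641 to 22935378, all lay below those of WT control, 26653828 to 28390961. Mtmr2 itself was at 128 to 161 CPM (counts scaled to a common library size with TMM factors) in the WT control libraries and at 66.8 to 84.7 CPM in 7 of the 8 libraries labelled Mtmr2 KO or Mtmr2 KO niacin, but the library labelled Mtmr2 KO 4503 had 143 CPM, inside the WT range. Library 4502 had the highest share of mitochondrially encoded counts, 6.997%, against 2.09% to 5.43% elsewhere, and its sensory neuron marker sum of 169 CPM was above the 51.2 to 92.2 CPM of the others. Skeletal muscle markers summed to 3507 CPM in 4506 and 3555 CPM in 4507, against at most 128 CPM in any other library.

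The start regions of Osbp2 and of its close relative Osbp are shown because Osbp2 was the member that differed most between groups. The sequences are those of RefSeq (GRCm38.p6), run from 250 bases before to 50 bases after an annotated start, and capitals mark the motifs searched on both strands: the CLEAR element TCACGTGA, the GC box GGGCGG and the CCAAT box, CCAAT. No match of one motif overlapped a match of another in these windows.
Osbp, chr19:11965594-11965893, + strand: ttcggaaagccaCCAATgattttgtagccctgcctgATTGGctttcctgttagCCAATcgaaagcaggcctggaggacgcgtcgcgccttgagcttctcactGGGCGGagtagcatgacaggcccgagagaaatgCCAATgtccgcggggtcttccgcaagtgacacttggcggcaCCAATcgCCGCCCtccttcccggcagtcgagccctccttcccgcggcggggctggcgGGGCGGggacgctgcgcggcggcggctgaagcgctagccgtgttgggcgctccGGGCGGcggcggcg
Osbp2, chr11:3863854-3864153, - strand: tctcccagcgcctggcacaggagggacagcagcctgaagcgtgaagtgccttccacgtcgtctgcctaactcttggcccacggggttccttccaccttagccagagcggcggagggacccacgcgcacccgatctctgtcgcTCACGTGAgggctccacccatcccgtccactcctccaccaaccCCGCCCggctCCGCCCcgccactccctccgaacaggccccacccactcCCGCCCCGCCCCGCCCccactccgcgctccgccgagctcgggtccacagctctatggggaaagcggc
Osbp2, chr11:3774619-3774918, - strand: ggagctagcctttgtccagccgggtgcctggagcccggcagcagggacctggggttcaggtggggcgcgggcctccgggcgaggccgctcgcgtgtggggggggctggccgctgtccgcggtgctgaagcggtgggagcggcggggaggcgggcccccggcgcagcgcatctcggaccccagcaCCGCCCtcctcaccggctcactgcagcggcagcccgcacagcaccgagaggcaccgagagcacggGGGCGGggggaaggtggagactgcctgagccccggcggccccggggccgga
Osbp2, chr11:3722178-3722477, - strand: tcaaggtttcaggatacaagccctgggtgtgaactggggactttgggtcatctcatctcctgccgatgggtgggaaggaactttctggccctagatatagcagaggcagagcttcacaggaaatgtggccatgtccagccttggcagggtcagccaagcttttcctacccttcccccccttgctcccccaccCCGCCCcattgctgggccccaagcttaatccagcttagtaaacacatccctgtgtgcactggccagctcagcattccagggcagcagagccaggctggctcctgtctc
The Osbp start held 4 GC boxes and 5 CCAAT boxes and no CLEAR element. The most upstream Osbp2 start held 5 GC boxes and 1 CLEAR element and no CCAAT box, the middle start 2 GC boxes, and the most downstream start 1. Over all 32851 RefSeq start regions, 35.7% held a GC box, 37.4% a CCAAT box and 0.974% a CLEAR element. Entries were found for 9 of the 10 members. Among the other members with an entry, Osbpl8 held a CLEAR element and the rest did not. The GC content of the 3 Osbp2 windows ranged from 57.7% to 77.7%, against a median of 52.7% over all windows. The counts are per gene and do not tell which Osbp2 start was used.

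Per kilobase of exon, the family spanned a wide range in the WT control nerve. On the RPKM scale, Osbpl5 had the highest mean level, 51.1, followed by Osbpl1a at 26.3, Osbp at 17.7, Osbpl2 at 12.97, Osbpl9 at 11.8, Osbpl11 at 8.56 and Osbpl8 at 4.61. Osbpl3 (1.93), Osbp2 (0.984) and Osbpl6 (0.632) were the lowest members, and Osbpl7 (2.43) and Osbpl10 (1.13) lay among them. In this order each gene's 4 WT libraries lay above those of the next, except that Osbpl10 and Osbp2 overlapped. Osbpl5, which with Osbpl8 moves phosphatidylserine out of the endoplasmic reticulum in exchange for PI4P, was thus 1.94 times the next gene on this scale, whereas Osbp2, the paralog of Osbp, was one of the scarcest. RPKM divides by the exons of all annotated transcripts, and which of them were expressed was not tested. The WT control means in CPM were 251 for Osbpl5 and 205 for Osbpl1a. In CPM Osbpl9 (82.8) lay above Osbp (79.2) and Osbpl2 (54.3).

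**Figure D1:**
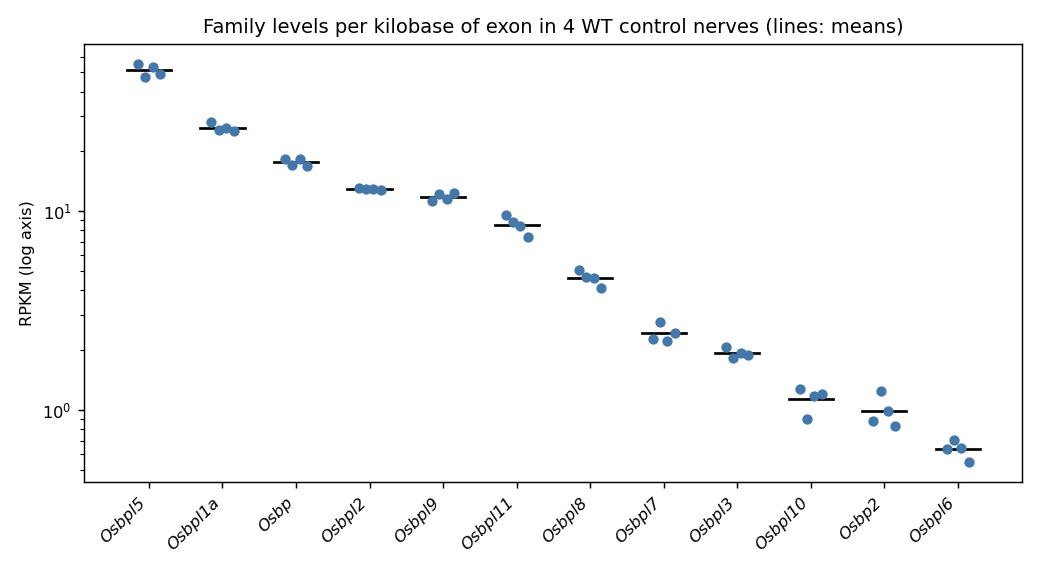
RPKM on a log axis for the 12 family genes in the 4 WT control libraries, 1 point per mouse, with lines at the means. Osbpl5 lies highest at a mean of 51.1 and Osbpl6 lowest at 0.632, and only the points of Osbpl10 and Osbp2 overlap between neighbours.

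Osbp2, on chromosome 11 (ENSMUSG00000020435, 3703731 to 3863903, - strand, GRCm38), was lower in every niacin-treated library than in every untreated Mtmr2 KO library. Its level was 5.60, 7.94, 6.24 and 5.26 CPM in the WT control libraries, 11.7, 7.31, 11.4 and 8.85 CPM in the Mtmr2 KO libraries, and 3.97, 3.94, 3.52 and 3.60 CPM in the Mtmr2 KO niacin libraries. The niacin libraries also lay below all 4 WT libraries, while the Mtmr2 KO and WT libraries overlapped because 4502, at 7.31 CPM, was below WT library 4498. These levels rest on 77 to 357 counts per library. Of the 6 transcripts of the gene, none overlaps the exons of another gene in the annotation. The mean was 6.26 ± 1.19 CPM for WT control (SD, n = 4), 9.82 ± 2.11 CPM for untreated Mtmr2 KO and 3.76 ± 0.231 CPM for niacin-treated Mtmr2 KO mice.

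Between the niacin-treated and untreated Mtmr2 KO nerves, Osbp2 fell by 1.39 on the log2 scale (SE 0.19, edgeR quasi-likelihood test, adjusted p = 0.0383), 2.61-fold lower. By p it ranked 2 among the 17257 genes tested, in a comparison where 1.43% of all genes were called at an adjusted p under 0.05. It was the single member called of 10, in any of the 3 comparisons. The exact permutation test gave p = 0.0286, the smallest that 4 against 4 libraries allow. Every gene whose groups do not overlap has this p, so it restates the separation, which 7.01% of all genes had here. Against WT control, the untreated Mtmr2 KO difference was 0.65 (SE 0.19, edgeR adjusted p = 0.118, exact permutation p = 0.0571), where 0.267% of genes were called. The niacin-treated difference from WT control was -0.74 (SE 0.19, edgeR adjusted p = 0.0868). In this comparison 0% of genes were called, although 4254 of them had an unadjusted p under 0.05. DESeq2 on all 12 libraries called 1057 genes, Osbp2 among them (-0.75, DESeq2 adjusted p = 0.0184). Osbp2 was called here in 6 of 26 alternative fits. With the share of mitochondrially encoded counts as a covariate its difference was -0.51 (edgeR adjusted p = 0.355).

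The direction of the Osbp2 difference between niacin-treated and untreated Mtmr2 KO nerves was kept in 26 of 26 alternative fits, from -1.52 to -1.21 on the log2 scale, but the call was kept in 18. The libraries of the 2 groups did not overlap, so leaving out libraries could not have reversed the direction, and its count is no separate support. With edgeR on these 2 groups alone the adjusted p was 0.174, while DESeq2 on the same libraries gave 1.96e-05. With the myelinating Schwann cell marker level as a covariate the adjusted p was 0.218, and with the skeletal muscle marker level 0.427. With the share of mitochondrially encoded counts the edgeR adjusted p was 0.0150. Leaving out 1 library ended the call for 4497 (edgeR adjusted p = 0.0678), 4499 (0.0669), 4500 (0.0619), 4506 (0.0595) and 4507 (0.153). In these leave-out fits the Osbp2 difference was -1.42 to -1.35, and each called 0 of all genes, against 246 in the reported fit. The edgeR fit on 2 groups and the fits with the Schwann cell or muscle covariate also called 0 of all genes. Without 4503, whose Mtmr2 level goes against its label, the difference was -1.30 (edgeR adjusted p = 0.0486).

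**Figure D2:**
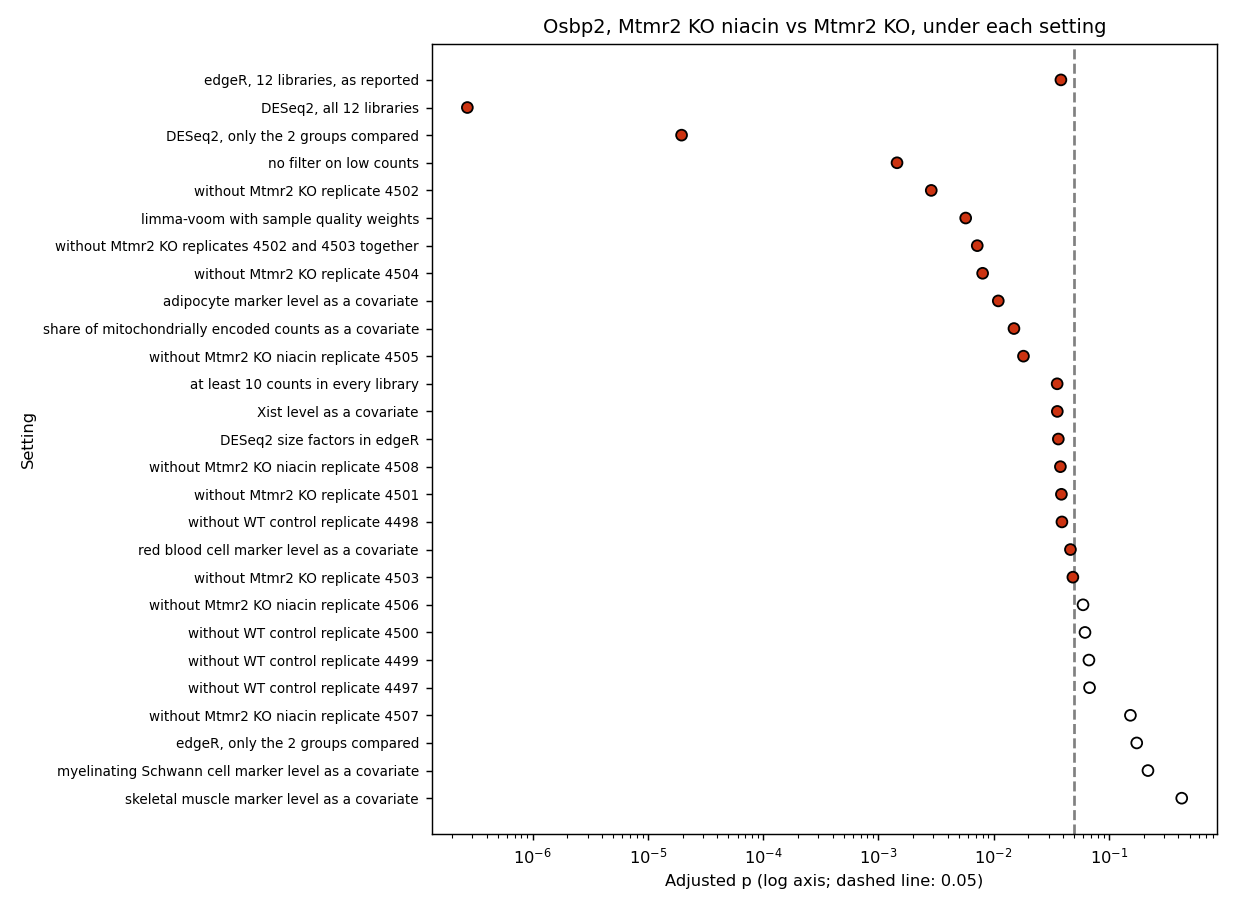
Adjusted p (log axis, dashed line at 0.05) of the Osbp2 difference between Mtmr2 KO niacin and Mtmr2 KO nerves in the reported edgeR fit and in 26 alternatives, ordered by p. Filled points passed the threshold (the reported fit and 18 alternatives) and open points did not (8).

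Markers of other cells moved with this comparison. All 11 myelinating Schwann cell markers were lower on average in the niacin-treated than in the untreated Mtmr2 KO libraries, with a median log2 difference of -0.56, 0 called by edgeR and 6 at an unadjusted p under 0.05, and their summed level was 66117 to 106677 CPM against 94048 to 127971 CPM. Of the 10 skeletal muscle markers tested, 7 were called higher. Osbp2 was at 3.94 CPM (4506) and 3.52 CPM (4507) in the 2 libraries with high muscle markers, and at 3.97 CPM (4505) and 3.60 CPM (4508) in the others. Adipocyte markers were higher for 10 of 11 genes (median 0.72, 1 called), fibroblast markers for 7 of 8 (median 0.78, 0 called), and non-myelinating Schwann cell markers were lower for 5 of 6 (median -0.25, 0 called). The part of these markers in the Osbp2 result was not tested beyond the covariate fits. The 34 tested genes within 500000 bases of Osbp2 had log2 differences of -0.62 to 0.56 in the same comparison, with 0 called.

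**Figure D3:**
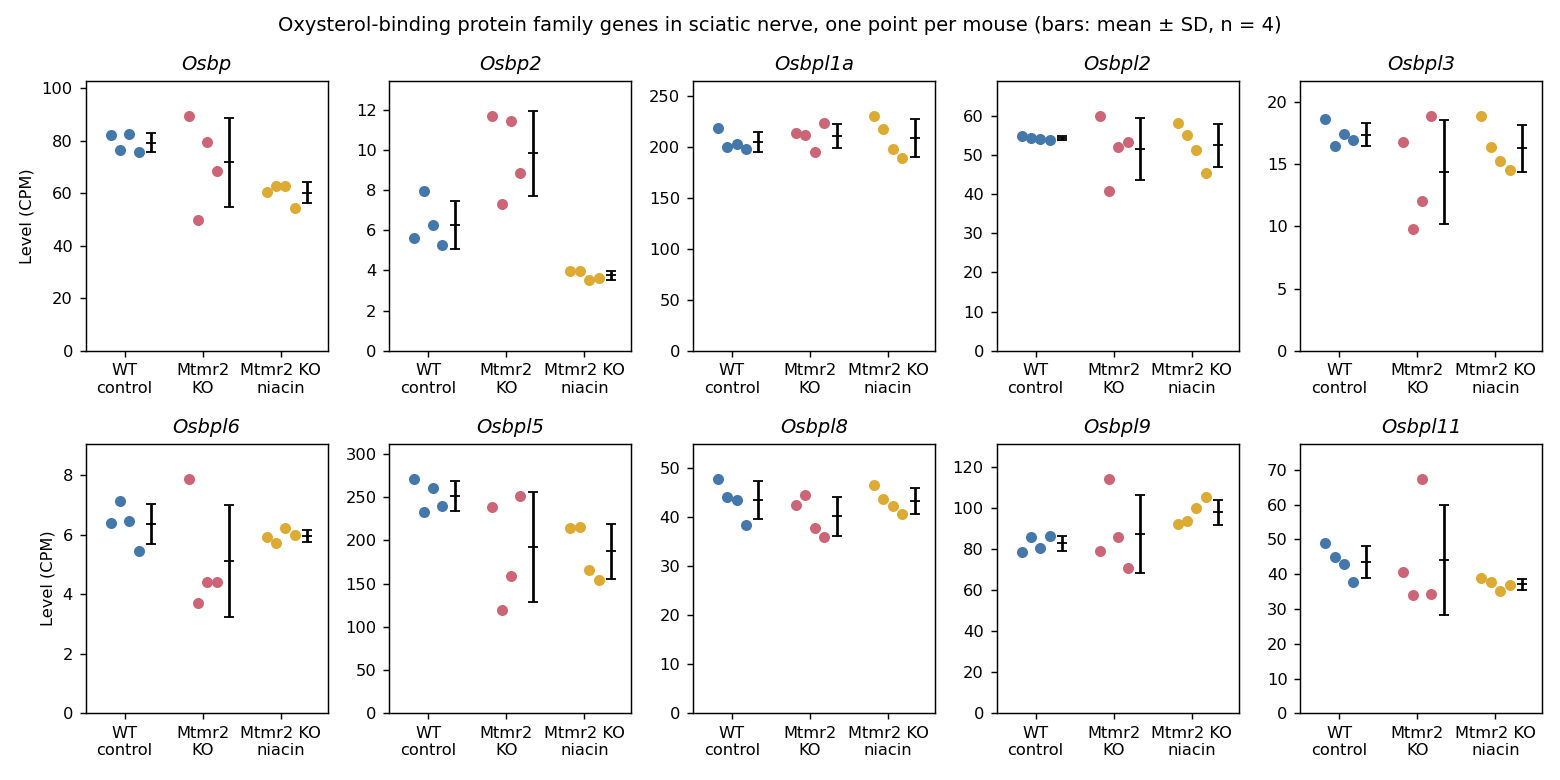
CPM of the 10 members in each library, 1 point per mouse and 1 panel per gene with its own axis from 0, with bars for the mean ± SD of 4 mice. Osbp2 is the panel in which the niacin-treated points, at 3.52 to 3.97 CPM, lie below all points of both other groups, and the Mtmr2 KO points are the most spread in most panels.

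Osbp, the founding member, exchanges cholesterol for PI4P between the endoplasmic reticulum and the Golgi. It was at 82.1, 76.4, 82.6 and 75.8 CPM in WT control, 89.3, 49.7, 79.6 and 68.6 CPM in Mtmr2 KO, and 60.5, 62.8, 62.9 and 54.5 CPM in Mtmr2 KO niacin libraries. The niacin-treated libraries lay below all WT libraries, and 4502 was the lowest of all 12. The log2 difference from WT control was -0.40 (SE 0.15, edgeR adjusted p = 0.153). Between niacin-treated and untreated Mtmr2 KO it was -0.26 (edgeR adjusted p = 0.364), and with 1 library left out it ranged from -0.13 without 4501 (edgeR adjusted p = 0.675) to -0.41 without 4502 (edgeR adjusted p = 0.0164), a fit that called 4180 of all genes.

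Osbpl5 and Osbpl8 encode the members held in the endoplasmic reticulum by a membrane segment. Osbpl5 was at 271, 233, 260 and 240 CPM in WT control, 239, 119, 159 and 251 CPM in Mtmr2 KO, and 214, 215, 166 and 154 CPM in Mtmr2 KO niacin libraries. All 4 niacin-treated libraries were below WT, and in the untreated Mtmr2 KO 4502 and 4503 were below every WT library. The log2 difference of Mtmr2 KO niacin from WT control was -0.42 (SE 0.21, edgeR adjusted p = 0.228) and that of Mtmr2 KO from WT control -0.39 (SE 0.21, edgeR adjusted p = 0.365). The latter was -0.22 without 4502 and -0.03 without 4502 and 4503. Osbpl8 ranged from 35.9 to 47.7 CPM over the 12 libraries, and its log2 differences lay between -0.11 and 0.11 in the 3 comparisons.

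Osbpl9 and Osbpl11 belong, with Osbpl10, to the group linked to Golgi and late endosomal membranes. Osbpl9 was at 78.6, 85.7, 80.5 and 86.2 CPM in WT control, 79.0, 114, 85.9 and 70.7 CPM in Mtmr2 KO, and 92.4, 93.8, 100.2 and 106 CPM in Mtmr2 KO niacin libraries. It was the one member whose niacin-treated libraries all lay above WT control, by 0.24 on the log2 scale (SE 0.14, edgeR adjusted p = 0.276). Between niacin-treated and untreated Mtmr2 KO the difference was 0.16 (edgeR adjusted p = 0.535), and without 4502, the highest library, 0.30 (edgeR adjusted p = 0.0399) in a fit that called 4180 of all genes. Of its 7006 exon bases, 633 are shared with Nrd1 on the opposite strand, and whether the counting used strand is not stated by the sources, so its reads are uncertain. Nrd1 itself had log2 differences of 0.10, 0.09 and 0.19 in Mtmr2 KO vs WT control, Mtmr2 KO niacin vs Mtmr2 KO and Mtmr2 KO niacin vs WT control.

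Osbpl11 was at 37.7 to 48.9 CPM in WT control and 35.1 to 38.9 CPM in Mtmr2 KO niacin libraries, which overlapped. In Mtmr2 KO it was at 40.5, 34.03, 67.4 and 34.3 CPM, so that 4503 alone was higher than every other library of the series. Its log2 difference between niacin-treated and untreated Mtmr2 KO was -0.25 (edgeR adjusted p = 0.490) and turned to 0.03 without 4503. Osbpl10 was also highest in 4503, at 10.2 CPM against 2.02 to 6.51 CPM elsewhere, and its niacin-treated libraries (3.39 to 4.16 CPM) lay below all WT libraries, at -0.63 (SE 0.35, edgeR adjusted p = 0.259).

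Osbpl1a, which acts on late endosomes and their cholesterol, was the steadiest member, at 189 to 230 CPM over all 12 libraries, with log2 differences of -0.02 to 0.04. Osbpl2, a short member that carries sterol to the plasma membrane, ranged from 40.9 CPM in 4502 to 60.0 CPM in 4501, with log2 differences of -0.07 to 0.03. Both are given by their ranges because the groups overlapped in each comparison. Exons of Osbpl1a overlap an antisense gene that was not analysed here.

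Osbpl3 and Osbpl6 form a subfamily with Osbpl7. Osbpl3 was at 9.77 CPM in 4502 and 12.02 CPM in 4503, below the 14.5 to 18.9 CPM of the other 10 libraries. Osbpl6 was at 3.72, 4.42 and 4.43 CPM in 4502, 4503 and 4504, below the 5.47 to 7.87 CPM of the other 9. The groups overlapped for both genes in every comparison. Osbpl7 had all niacin-treated libraries (6.27 to 11.5 CPM) below all WT libraries (13.2 to 16.5 CPM), with a log2 difference of -0.57 (SE 0.23, edgeR adjusted p = 0.166).

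**Figure D4:**
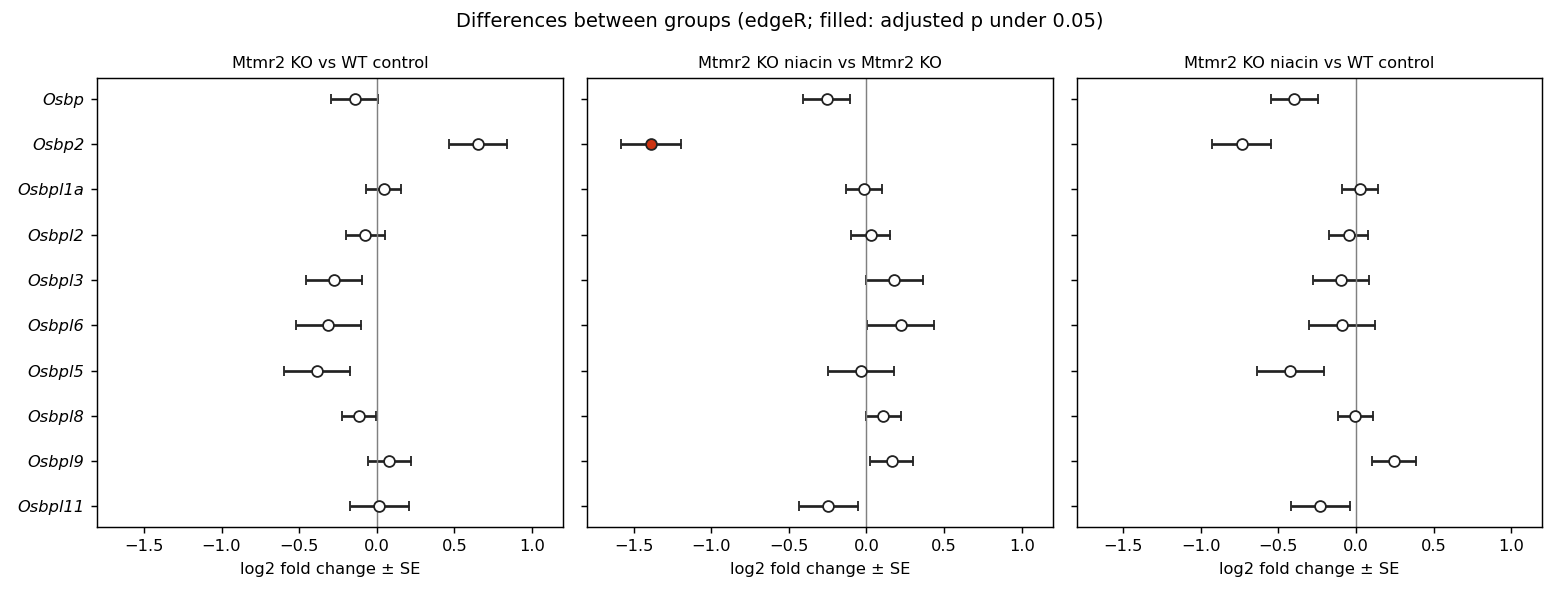
Log2 fold changes with their SE for the 10 members in the 3 comparisons from the edgeR fit, with a filled point where the adjusted p was under 0.05. The single filled point is Osbp2 in Mtmr2 KO niacin vs Mtmr2 KO, at -1.39.

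Counted over the 10 members, 4 had niacin-treated libraries wholly apart from WT control, with Osbp, Osbp2 and Osbpl5 lower and Osbpl9 higher, where 31.4% of all genes tested were apart in the same way. The family genes outside the members, Osbpl7 and Osbpl10, were also apart, both lower. Between niacin-treated and untreated Mtmr2 KO 1 member was apart, where 7.01% of all genes were, and for Mtmr2 KO against WT control 0 of 10 were, against 9.32% of all genes. The median log2 difference of the members was -0.09, 0.00 and -0.09 for Mtmr2 KO vs WT control, Mtmr2 KO niacin vs Mtmr2 KO and Mtmr2 KO niacin vs WT control, against 0.03, -0.04 and 0.02 over all genes. The comparisons share libraries, so these are not separate observations. In Mtmr2 KO niacin vs WT control the members called were 0 in the edgeR fit over 12 libraries, 4 with edgeR on the 2 groups (Osbp, Osbp2, Osbpl5 and Osbpl9), the same 4 with DESeq2 on the 2 groups, and 5 with limma-voom, which added Osbpl11. Those fits called 5586, 5777 and 7311 of all genes. All 6 endothelial markers were lower in the niacin-treated than in the WT control libraries, with summed levels of 278 to 450 CPM against 623 to 651 CPM. Higher were all 10 skeletal muscle markers tested (median log2 difference 5.12), all 8 sensory neuron markers tested (0.57) and all 7 macrophage markers (0.49). Of these 4 marker lists, 0 genes were called by edgeR over 12 libraries. Their part in these differences was not tested beyond the skeletal muscle covariate fit.

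The spread between mice was widest in the untreated Mtmr2 KO group. The median SD of log2 CPM over the members was 0.09 for WT control, 0.34 for untreated and 0.09 for niacin-treated Mtmr2 KO mice, and over all genes 0.16, 0.40 and 0.22. Of the 10 members, 0, 6, 6 and 6 lay below all WT libraries in 4501, 4502, 4503 and 4504, and 4, 1, 2 and 3 above them. In 4505, 4506, 4507 and 4508, 3, 5, 7 and 7 lay below and 4, 2, 1 and 1 above. These counts were not made over all genes, so whether they are particular to the members was not tested. The members' median log2 deviation from the WT mean was lowest in 4502, at -0.38, against -0.06 in 4503 and -0.12 in 4504. Their median absolute deviation was 0.08, 0.44, 0.35 and 0.22 in 4501 to 4504. Over all genes it was 0.18, 0.53, 0.34 and 0.20. In 4505 to 4508 it was 0.16, 0.16, 0.23 and 0.26 for the members and 0.36, 0.23, 0.33 and 0.41 over all genes. Over the 12 libraries, Osbpl3 and Osbpl5 had the highest Pearson correlation of log2 CPM (r = 0.90) and Osbpl5 and Osbpl9 the lowest (r = -0.85). These points share the groups and the libraries 4502 and 4503, and r is given as a description.

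**Figure D5:**
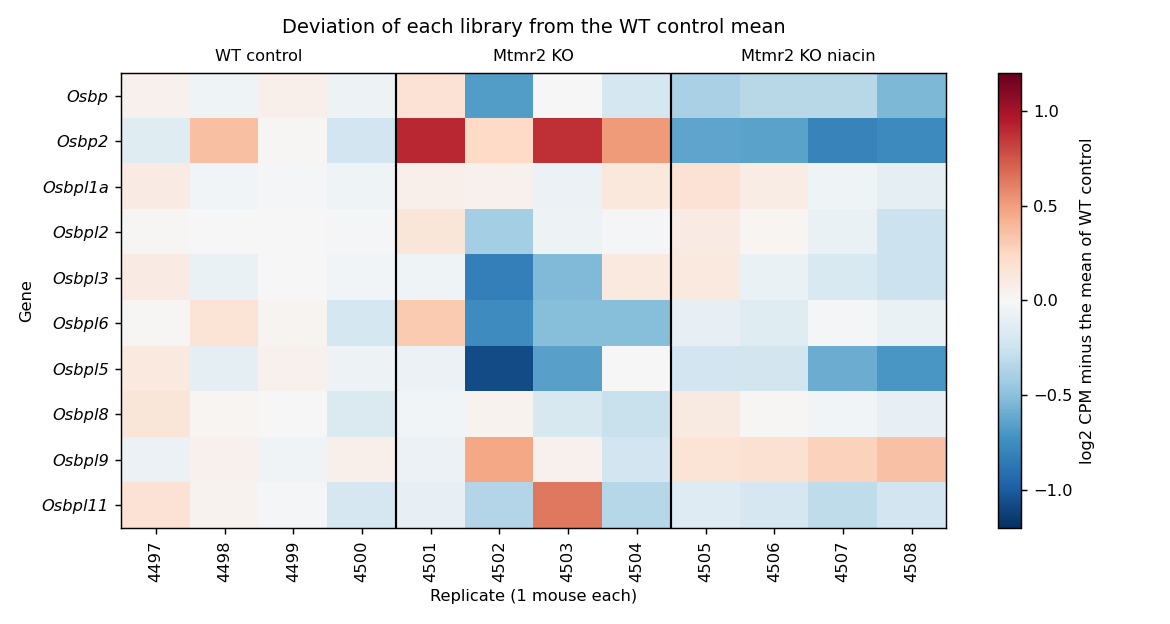
Log2 CPM of each member in each library minus the WT control mean, red higher and blue lower, with the 3 groups separated by lines. Osbp2 is red in the Mtmr2 KO and blue in the Mtmr2 KO niacin columns, and 4502 has the lowest median deviation of the 8 Mtmr2 -/- libraries, at -0.38.

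The genes most like the 3 most variable members were sought by Pearson correlation of log2 CPM over the 12 libraries, as a description. For Osbp2 these were Dhx40 (r = 0.95), Cbx2 (0.95) and Cdkn1b (0.95), a cyclin-dependent kinase inhibitor, and the least alike was Eif2ak2 (-0.95), the kinase sensing double-stranded RNA. For Osbpl5 they were Afg3l1 (0.99), Fam20c (0.98) and Arl10 (0.97), with Crbn (-0.96) the least alike. For Osbpl6 they were Sfpq (0.90), Inhbb (0.90) and Fam117a (0.90), with 1810058I24Rik (-0.92) the least alike.

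None of the 5 VAP anchor genes, the 11 genes of PI4P synthesis and turnover, the 3 of phosphatidylserine metabolism or the 28 other lipid transfer proteins was called in any of the 3 comparisons by the edgeR fit over 12 libraries. Nor was any of the 23 cholesterol synthesis and uptake genes or the 8 sterol efflux and LXR target genes. Other fits called some of these genes. In Mtmr2 KO niacin vs WT control DESeq2 on 12 libraries called 5 of them and limma-voom 39. On the 2 groups alone edgeR called 34 and DESeq2 37. Of all genes, DESeq2 on 12 libraries called 1057, limma-voom 7311, edgeR on the 2 groups 5586 and DESeq2 on them 5777. Without 4502, 24 were called in Mtmr2 KO niacin vs Mtmr2 KO, in a fit that called 4180 of all genes. In Mtmr2 KO vs WT control the 26 alternatives called 0 to 4 of the list genes and 0 to 1140 of all genes. At an unadjusted p under 0.05 in Mtmr2 KO niacin vs WT control there were 1 VAP anchor, 6 PI4P, 0 phosphatidylserine, 4 lipid transfer, 7 cholesterol and 3 efflux genes, where 24.7% of all genes passed. In Mtmr2 KO niacin vs Mtmr2 KO there were 0, 3, 0, 11, 8 and 3 in the same order, where 20.1% passed, and in Mtmr2 KO vs WT control 0, 1, 0, 4, 0 and 2, where 17.2% passed. Of the family members themselves, 2, 1 and 1 of 10 passed that level in these 3 comparisons. The VAP genes with the most counts were Vapb, at 192 CPM in WT control, and Vapa, at 100.1 CPM, and those of phosphatidylserine metabolism were Ptdss1, at 124 CPM, and Ptdss2, at 40.6 CPM. Npc2 (363 CPM) and Pitpna (209 CPM) had the most counts among the other lipid transfer proteins.

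Pi4ka, which makes PI4P at the plasma membrane, was at 105 ± 16.0 CPM for WT control (SD, n = 4), 90.4 ± 23.6 CPM for untreated and 66.9 ± 8.86 CPM for niacin-treated Mtmr2 KO mice, a log2 difference of -0.65 (SE 0.19, edgeR adjusted p = 0.101) between the last and WT control that was called in 6 of 26 alternatives, by DESeq2 on 12 libraries among them (DESeq2 adjusted p = 0.0359). Between niacin-treated and untreated Mtmr2 KO the Pi4ka difference was -0.44 (edgeR adjusted p = 0.219), called in 3 of 26 alternatives. Efr3a, which recruits that kinase, was at 83.6 ± 3.63 CPM in WT control, 77.6 ± 10.8 CPM in untreated and 100.4 ± 8.90 CPM in niacin-treated Mtmr2 KO mice. Its niacin-treated difference from WT control was 0.26 (edgeR adjusted p = 0.200), called in 4 of 26 alternatives. From untreated Mtmr2 KO it was 0.37 (edgeR adjusted p = 0.122), called in 2 of 26. Among cholesterol genes, Hmgcs1, an early enzyme of the pathway, differed by 0.73 between niacin-treated and untreated Mtmr2 KO (edgeR adjusted p = 0.209). Srebf1, a lipogenic LXR target, differed by -0.78 between Mtmr2 KO and WT control (edgeR adjusted p = 0.0844). It was called there in 5 of 26 alternatives, by DESeq2 on 12 libraries among them (DESeq2 adjusted p = 0.00752). Between niacin-treated Mtmr2 KO and WT control it differed by -0.60 (edgeR adjusted p = 0.113). That difference was called in 6 of 26, again by DESeq2 on 12 libraries among them (DESeq2 adjusted p = 0.0428). Apoe, the sterol efflux and LXR target gene with the most counts, was at 2032 CPM in WT control.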

How the data were processed

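Poly(A)-selected RNA of 12 sciatic nerves was sequenced as paired-end reads. The authors mapped the reads with STAR to GRCm38, and the deposited table holds raw counts per Ensembl gene, whole numbers without normalization. The submitters' processing notes also name CASAVA 1.9 and DESeq2. The sources used here do not name the counting program, its annotation or whether it used strand. The deposited DESeq2 tables hold the authors' fold changes and p-values, and nothing but their pairing of identifiers with symbols was used.

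The edgeR 4.0.16 package in R 4.3.3 was used on the counts, with filterByExpr, TMM scaling and a single quasi-likelihood model of all 12 libraries, from which 3 two-sided comparisons were taken. A call is an adjusted p under 0.05 (Benjamini-Hochberg, 17257 genes). The SE is the log2 difference divided by the square root of F. CPM used TMM-scaled totals, log2 CPM a prior count of 2, and RPKM the exon union of GENCODE M21. Exact permutation tests were two-sided over 70 draws. Alternatives used DESeq2 1.42.0, limma 3.58.1 (voom), other filters and size factors, marker or Xist covariates, and each library left out. The scripts were tested on simulated data. Within each group every pair of libraries differed by more than counting noise (chi-square per degree of freedom 11.6 to 312). Conditions came from the labels. Exact permutation p-values rest on the 4 mice of each of the 2 groups compared. The p-values of fits over all 3 groups rest on a spread between mice estimated from all of them. The spread of the untreated Mtmr2 KO group thus also enters the comparison of the other groups.

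The members and lists were chosen with earlier results of these data known. The red blood cell list, the covariate for mitochondrial share and the exclusion of 4502 with 4503 were chosen after seeing the data. The genes named were the 12 family genes, Mtmr2, from each list the called genes and the 2 most abundant, and the genes most correlated with the 3 most variable members. For the list genes, differences are given only where an unadjusted p was under 0.05. One gene that this rule names is not reported here. Neighbours of Osbp2 and the overlap with Nrd1 were looked up after Osbp2 and Osbpl9 values were seen.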

Additional observations from a re-analysis of the deposited data

How the results depend on the processing

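For Osbp2 in Mtmr2 KO niacin vs Mtmr2 KO the call was kept in 18 of 26 alternatives. The direction was kept in 26 of 26, which leaving out libraries could not have changed because the groups did not overlap. The members called there were 1 as reported, 0 with edgeR on 2 groups and with the myelinating Schwann cell or skeletal muscle covariate, 2 with limma-voom (Osbp2, Osbpl9), 3 without 4502 and 4503 together (Osbp, Osbp2, Osbpl9), and 0 to 3 with each library left out, with 0 without 4497, 4499, 4500, 4506 or 4507 and 3 without 4502. For Mtmr2 KO vs WT control they were 0 as reported, 2 with the adipocyte covariate (Osbpl3, Osbpl5) and 1 with the mitochondrial share (Osbp2). For Mtmr2 KO niacin vs WT control they were 0 as reported, 1 with DESeq2 on 12 libraries (Osbp2) and 4 with DESeq2 or edgeR on 2 groups. They were 5 with limma-voom, 4 without 4502 and 4503 together, and 0 to 2 with each library left out (2 without 4502, Osbp and Osbp2). Over all genes, calls ranged from 0 to 1140, 0 to 4180 and 0 to 7311 in Mtmr2 KO vs WT control, Mtmr2 KO niacin vs Mtmr2 KO and Mtmr2 KO niacin vs WT control, against 46, 246 and 0 as reported. The fits that called more members than the reported fit also called more of all genes than the reported fit. For Mtmr2 KO niacin vs Mtmr2 KO these were 2007 with limma-voom, 2223 without 4502 and 4503 and 4180 without 4502. The calls over all genes were 0 with edgeR on 2 groups, with the Schwann cell or muscle covariate, and without 4497, 4499, 4500, 4506 or 4507. In Mtmr2 KO vs WT control they were 1140 with the adipocyte covariate and 227 with the mitochondrial share. There DESeq2 called more genes than the latter, 680 on 12 libraries and 427 on 2 groups, with 0 members called. For Mtmr2 KO niacin vs WT control the calls over all genes were 1057 and 5777 with DESeq2 on 12 libraries and on 2 groups. They were 5586 with edgeR on 2 groups, 7311 with limma-voom, 5263 without 4502 and 4503 and 3826 without 4502. The cause was not tested.

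Some log2 differences of uncalled genes changed sign, all with an adjusted p over 0.05. In Mtmr2 KO vs WT control, Osbpl11 was -0.0027 and -0.010 with DESeq2 on 12 and on 2-group libraries, -0.15 with limma-voom, -0.051 without a filter, -0.075 with the Schwann cell covariate, -0.0097 with the red blood cell covariate and -0.21 without 4502 and 4503. Osbpl2 was 0.0072 with limma-voom, 0.018 with the mitochondrial share and 0.066 without 4502 and 4503. Osbpl9 was -0.072, -0.053 and -0.14 in the same 3 fits. Osbpl1a was -0.024 without a filter and -0.014 with the adipocyte covariate. With the mitochondrial share Osbpl7 was 0.0075 and Osbpl10 0.13, and without 4502 and 4503 Osbp was 0.00063 and Osbpl3 0.040.

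In Mtmr2 KO niacin vs Mtmr2 KO, the Schwann cell covariate gave 0.027 for Osbp, 0.090 for Osbpl1a, 0.37 for Osbpl5, -0.046 for Osbpl9, 0.028 for Osbpl11 and 0.15 for Osbpl10. Limma-voom gave -0.065 for Osbpl2 and -0.041 for Osbpl3, the skeletal muscle covariate -0.015 for Osbpl2, DESeq2 on 2 groups 0.0018 for Osbpl1a, the adipocyte covariate 0.039 for Osbpl1a and 0.31 for Osbpl5, and the mitochondrial share 0.17 for Osbpl5. Without 4502 and 4503, Osbpl2 was -0.12, Osbpl3 -0.14 and Osbpl6 -0.061.

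In Mtmr2 KO niacin vs WT control, Osbpl8 was 9.1e-05 with edgeR on 2 groups, 0.0092 with at least 10 counts in every library, 0.029 with the Schwann cell and 0.024 with the skeletal muscle covariate. Osbpl1a was -0.0077 with limma-voom and -0.024 without a filter. Osbpl2 and Osbpl3 were 0.12 and 0.094 with the Schwann cell covariate and 0.14 and 0.18 with the mitochondrial share, which gave 0.13 for Osbpl6 and 0.034 for Osbpl10.

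With each library left out, the differences that changed sign in Mtmr2 KO vs WT control ranged from -0.51 to 0.23 for Osbpl10, -0.27 to 0.12 for Osbpl11, -0.16 to 0.018 for Osbpl2, -0.078 to 0.16 for Osbpl9 and -0.28 to 0.083 for Osbpl7. In Mtmr2 KO niacin vs Mtmr2 KO they ranged from -0.22 to 0.12 for Osbpl5, -0.083 to 0.11 for Osbpl2, -0.37 to 0.034 for Osbpl11 and -0.066 to 0.031 for Osbpl1a. In Mtmr2 KO niacin vs WT control they ranged from -0.063 to 0.041 for Osbpl8, -0.029 to 0.070 for Osbpl1a and -0.11 to 0.015 for Osbpl2.

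No paired analysis was possible because the groups share no replicate numbers. Osbp2 and Osbpl6 rest on the fewest counts of the members, 77 to 357 and 83 to 226 per library.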

Other observations

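The share of each member in the summed RPKM of the 10 members was a further description of the family. Osbpl5 held 37.4% ± 1.16 of that sum for WT control (SD, n = 4), 31.0% ± 6.98 for untreated and 31.7% ± 2.72 for niacin-treated Mtmr2 KO mice, and Osbpl1a held 19.3% ± 0.292, 22.2% ± 2.98 and 22.4% ± 0.351.

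Adipocyte markers, whose level as a covariate gave calls for Osbpl3 and Osbpl5 in Mtmr2 KO vs WT control, summed to 981 to 5385 CPM in the libraries labelled Mtmr2 KO and 3614 to 4567 CPM in WT control, with 2 of 11 markers called lower. Of the 6 red blood cell markers tested, 0 were called in any of the 3 comparisons by edgeR, and 0 had an unadjusted p under 0.05. Their part in the family results was not tested beyond the covariate fits.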
